A study of Mus musculus with 32 samples.

Results

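The 10 genes Rax, Six3, Six6, Lhx2, Nkx2-1, Nkx2-2, Fezf2, Otp, Tbx3 and Zfhx3 encode transcription factors that pattern the hypothalamus or its ventricular wall. They were chosen by gene symbol from the 27998 genes of a single-cell RNA sequencing (scRNA-seq) count matrix of the mouse median eminence (ME), and each symbol matched 1 gene. 7 of them (Rax, Six3, Six6, Lhx2, Nkx2-1, Nkx2-2 and Otp) encode homeobox factors, and Zfhx3 encodes a zinc finger homeobox factor. Fezf2 encodes a zinc finger factor and Tbx3 a T-box factor, so the set is not made of homeobox genes alone.

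Rax, Six3, Six6 and Nkx2-1 act early in development to set up the ventral forebrain, the eye field and the hypothalamus. Rax and Lhx2 are known to be kept on in tanycytes, the elongated glia that line the floor and lower walls of the ventricle above the ME. Otp is required for several neuroendocrine neuron types, Tbx3 is known from arcuate neurons and tanycytes, Zfhx3 from the suprachiasmatic clock, Nkx2-2 from the oligodendrocyte lineage and Fezf2 from forebrain progenitors.

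The ME was dissected from C57B/L6 mice aged 40 to 47 days. One group of 5 mice had food removed for 16 h overnight, and the other 5 mice were fasted in the same way and then given normal chow for 1 h. The tissue was dissociated with papain in separate tubes and sorted for live nucleated cells, and each group gave 2 droplet libraries. The methods of the study do not say at which step the mice of a group were combined. Each cell barcode carries a number from 1 to 4 whose library and feeding state are not given in the sources used here, so fasted and refed cells were not compared. All 5982 cells were therefore treated as 1 pooled sample without replicates, and the 4 barcode numbers are shown only as 4 separate readings.

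The matrix held 29288898 unique molecular identifiers (UMIs, each standing for 1 captured transcript), with a median of 3837 per cell and a range from 1533 to 25054. 21 barcodes occurred under more than 1 number. Cells were clustered without the 10 genes, and clusters were named from marker lists that did not contain them. This gave 1314 tanycyte-like, 198 ependymocyte-like, 1419 astrocyte-like and 533 neuron-like cells, with median depths of 4037.5, 4861.5, 2665 and 13043 UMIs. Of the 8 markers listed for each type, 7 tanycyte markers and all 8 of the other 3 types were highest in the type they were meant to mark, out of 13 named types, the exception being Cd59a, which was highest in endothelial-like cells. The same lists had named the clusters, so this agreement was partly built in and is no independent check. A further cluster of 323 cells led by Gfap, an intermediate filament gene, scored highest on the tanycyte list, but its 10 leading genes held 0 tanycyte markers and 2 markers of another type, so it was left unnamed. Levels are counts per 1000000 UMIs (CPM) summed over the cells of a type, with exact Poisson intervals at the 95% level. Shares of positive cells (at least 1 UMI) have exact Clopper-Pearson intervals, and both kinds of interval cover counting error only.

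7 of the 10 genes had their highest level among the 4 types in tanycyte-like cells: Rax, Six3, Six6, Lhx2, Nkx2-1, Fezf2 and Tbx3. Of the 12591 genes with at least 50 UMIs in the 4 types, 17.6% were highest there. Otp and Zfhx3 were highest in neuron-like cells (background 36.1%) and Nkx2-2 in astrocyte-like cells (background 21.8%). The members were chosen with earlier results of these data known, so these counts describe them and test nothing. Over all 13 named types the tanycyte-like cells kept 6 of these, whereas Tbx3 was highest in mural-like cells, Zfhx3 in microglia-like cells and Nkx2-2 in differentiating oligodendrocyte precursor (diffOPC)-like cells. Levels are compared within a gene only, because a level on this scale does not rank one gene against another.

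**Figure D1:**
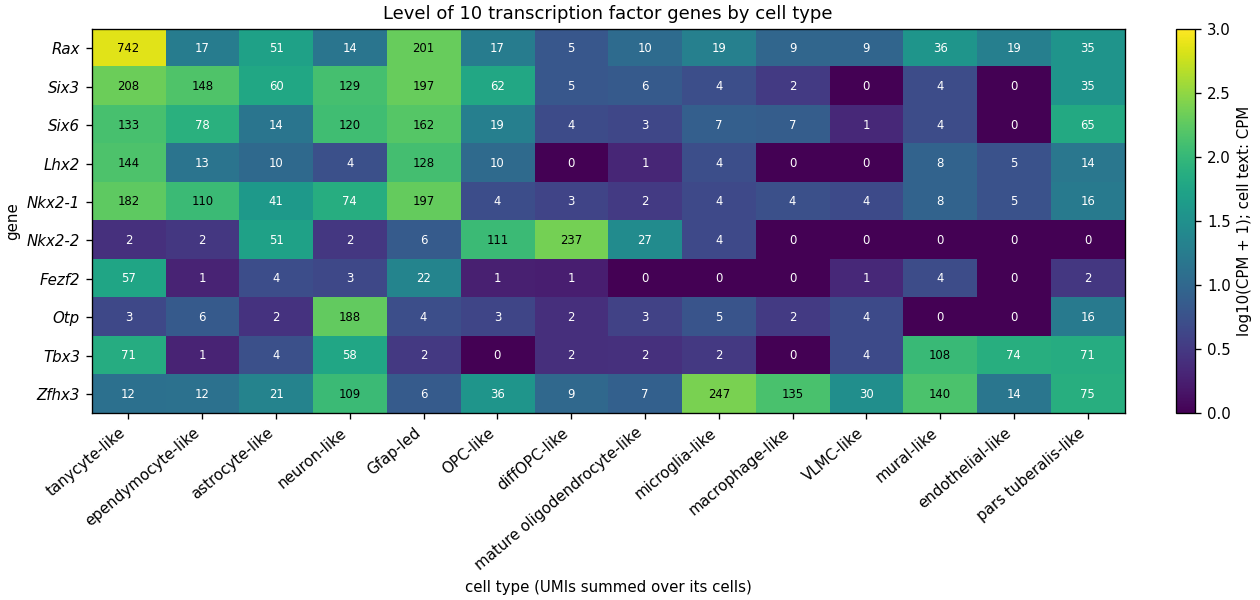
Level of each gene (rows) in 13 named cell types and the Gfap-led cluster (columns), as CPM written in each field and as log10(CPM + 1) in colour. Rax stands at 742 CPM in tanycyte-like cells against 201 CPM in the Gfap-led cluster, and Zfhx3 is highest in microglia-like cells at 247 CPM.

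Rax (ENSMUSG00000024518, chromosome 18, 65928277 to 65939787, minus strand, GRCm38) was the gene most confined to tanycyte-like cells by its share of UMIs: 84.7% of its 4818 UMIs were found there. Its level in these cells was 743, 778, 723 and 723 CPM in barcode numbers 1 to 4. Over all tanycyte-like cells it stood at 742 CPM (95% interval 719 to 765), against 50.8 CPM in astrocyte-like, 17.3 CPM in ependymocyte-like and 13.9 CPM in neuron-like cells. The 4 readings of tanycyte-like cells lay far above every reading of the other 3 types. Rax UMIs were found in 82.7% of tanycyte-like cells, and in 67.3% (64.6 to 69.8) after each cell had been thinned to 2000 UMIs.

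The lower Rax levels need the background of the droplets beside them. In neuron-like cells 16.3% held a Rax UMI before thinning, but only 3.40% (2.03 to 5.32) after it. Microglia-like cells, which should lack Rax, were positive in 2.42% (1.11 to 4.54) after thinning at a median depth of 3124 UMIs, and mature oligodendrocyte-like cells in 0.917% at 6133 UMIs. The shares in neuron-like and ependymocyte-like cells (3.03%, 1.12 to 6.48) had intervals that overlapped that of microglia-like cells. The interval of mature oligodendrocyte-like cells (0.337 to 1.99) overlapped that of ependymocyte-like cells but lay below that of neuron-like cells. The astrocyte-like share of 7.35% (5.98 to 8.92) lay above it. The Rax readings of microglia-like cells were 6.67, 14.6, 9.003 and 57.0 CPM in numbers 1 to 4, so number 4 alone reached the range of astrocyte-like cells (34.6 to 62.9 CPM). The Gfap-led cluster was intermediate at 201 CPM, with readings from 144 to 249 CPM.

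Lhx2 (ENSMUSG00000000247, chromosome 2, 38339281 to 38369733, plus strand), a LIM homeobox gene of eye and forebrain development, had a pattern close to that of Rax. In tanycyte-like cells it was measured at 154, 162, 144 and 115 CPM in numbers 1 to 4. The level over all these cells was 144 CPM (134 to 154), against 13.2, 9.70 and 4.47 CPM in ependymocyte-like, astrocyte-like and neuron-like cells, and no reading of those types came near it. Thinned cells were positive in 22.6% of tanycyte-like cells and in 0.538% of microglia-like cells. Unlike Rax, Lhx2 was almost as high in the Gfap-led cluster, at 128 CPM (110 to 148), and the 2 intervals overlapped.

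Fezf2 (ENSMUSG00000021743, chromosome 14, 12342094 to 12348189, minus strand) was also found mainly in tanycyte-like cells. Its readings in tanycyte-like cells were 53.7, 61.0, 60.2 and 55.5 CPM, and the level over all cells was 57.3 CPM (51.1 to 64.0). Ependymocyte-like, astrocyte-like and neuron-like cells had 1.02, 4.08 and 3.43 CPM. No Fezf2 UMI was found in the 655 mature oligodendrocyte-like cells, where 3 counts would correspond to 0.674 CPM. In thinned cells 12.1% of tanycyte-like cells were positive and 0.945% of neuron-like cells. The Gfap-led cluster again lay between, at 21.8 CPM (14.8 to 31.0).

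Tbx3 (ENSMUSG00000018604, chromosome 5, 119670669 to 119684724, plus strand) was present in tanycyte-like and neuron-like cells but nearly absent from ependymocyte-like cells. It was measured at 76.2, 70.0, 69.5 and 68.0 CPM in the 4 readings of tanycyte-like cells and at 55.3, 72.9, 53.8 and 57.5 CPM in those of neuron-like cells, so the readings overlapped. Over all cells the levels were 71.3 CPM (64.4 to 78.7) and 58.4 CPM (52.7 to 64.5), with intervals that touched. Tanycyte-like cells were higher than neuron-like cells in 3 of the 4 numbers, and the difference was not tested. A single UMI was found in ependymocyte-like cells (1.02 CPM), and 3 UMIs in the Gfap-led cluster (2.11 CPM), which thereby differed from tanycyte-like cells in Tbx3 more than in the other genes high in tanycyte-like cells. Outside the 4 types, Tbx3 reached 108 CPM (71.3 to 157) in mural-like, 74.4 CPM in endothelial-like and 71.3 CPM in pars tuberalis-like cells, from 27, 16 and 35 UMIs.

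The sequence before the transcript start is shown for 3 genes whose levels were highest in tanycyte-like cells and whose window of 250 bases held no annotated untranslated or coding exon (for Lhx2, the window before the first of 2 starts). Positions and sequences are those of RefSeq on GRCm38.p6, written in the direction of transcription. Capitals mark CCAAT, with its reverse complement ATTGG, and GGGCGG, with its reverse complement CCGCCC. Of 32851 such windows over all genes, 33.8% held CCAAT and 32.7% held GGGCGG on either strand.
Six3, chr17:85620584-85620833, plus strand: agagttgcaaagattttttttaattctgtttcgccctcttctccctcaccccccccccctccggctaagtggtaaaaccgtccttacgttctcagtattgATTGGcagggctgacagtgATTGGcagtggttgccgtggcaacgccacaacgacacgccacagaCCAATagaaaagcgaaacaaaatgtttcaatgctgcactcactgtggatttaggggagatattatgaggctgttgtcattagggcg
Lhx2, chr2:38339031-38339280, plus strand: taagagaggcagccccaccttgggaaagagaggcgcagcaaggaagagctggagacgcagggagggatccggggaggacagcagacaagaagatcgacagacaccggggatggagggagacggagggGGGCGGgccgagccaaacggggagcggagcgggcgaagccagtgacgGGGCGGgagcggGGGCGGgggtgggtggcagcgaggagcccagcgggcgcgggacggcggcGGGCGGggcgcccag
Nkx2-1, chr12:56536909-56537158, minus strand: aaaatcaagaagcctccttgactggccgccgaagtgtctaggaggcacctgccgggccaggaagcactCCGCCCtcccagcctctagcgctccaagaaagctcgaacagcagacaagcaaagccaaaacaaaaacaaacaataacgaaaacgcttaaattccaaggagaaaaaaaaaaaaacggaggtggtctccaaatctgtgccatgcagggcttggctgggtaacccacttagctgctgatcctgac

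The windows differed in composition although the 3 genes were highest in the same cells. Lhx2 had 25 CG steps and 72.8% G and C with 4 copies of GGGCGG, and Nkx2-1 had 9 CG steps, 50.8% G and C and 1 copy. Six3 had no GGGCGG but 3 copies of CCAAT, with 10 CG steps, against a median of 6 over all windows. None of the 3 held TAATTA, a core bound by many homeodomains and present in 4.84% of all windows, or TATAAA, present in 12.4%. The matches describe letters in these windows and say nothing of binding. The Six3 window lies inside the longer GENCODE span of the gene.

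Six3, Six6 and Nkx2-1 were shared more widely than Rax, Lhx2 and Fezf2. Six3 (ENSMUSG00000038805, chromosome 17, 85613608 to 85629302, plus strand), a homeobox gene of the anterior forebrain and eye field, was measured at 205, 214, 225 and 193 CPM in tanycyte-like cells. The readings of ependymocyte-like cells were 227, 169, 116 and 116 CPM and overlapped them. Neuron-like cells had 116 to 160 CPM and astrocyte-like cells 46.7 to 80.5 CPM, both below every tanycyte-like reading. By the share of positive thinned cells, ependymocyte-like cells came first with 30.8% (24.5 to 37.7), followed by tanycyte-like cells with 27.7% (25.3 to 30.2), neuron-like cells with 21.6% and astrocyte-like cells with 10.2%. The first 2 shares could not be told apart within counting error, and microglia-like cells were at 0.269%.

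Six6 (ENSMUSG00000021099, chromosome 12, 72939892 to 72944899, plus strand), the close relative of Six3, had summed levels with overlapping intervals in tanycyte-like and neuron-like cells. The readings were 132, 144, 136 and 119.8 CPM in the former and 92.4, 155, 127 and 112 CPM in the latter. The totals were 133 CPM (123 to 143) and 119.7 CPM (112 to 128). When each cell was given equal weight by thinning, the order turned: neuron-like cells had 158 CPM and tanycyte-like cells 113 CPM, and the positive shares were 20.04% (16.7 to 23.7) and 14.4% (12.6 to 16.5). Ependymocyte-like cells stood at 78.3 CPM and astrocyte-like cells at 13.5 CPM. The start of Six6 overlaps the gene 4930447C04Rik (72881109 to 72940774) on the other strand. That gene had 31.8 CPM in tanycyte-like and 60.2 CPM in neuron-like cells, and its part in the Six6 counts was not tested.

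Nkx2-1 (ENSMUSG00000001496, chromosome 12, 56531958 to 56536908, minus strand), which specifies the ventral hypothalamus, was graded over the 4 types. Its readings in tanycyte-like cells were 202, 191, 168 and 159 CPM. Ependymocyte-like cells followed with 86.3 to 153 CPM, neuron-like cells with 64.2 to 88.0 CPM and astrocyte-like cells with 38.5 to 45.7 CPM. The 4 totals of 182, 109.8, 73.9 and 41.1 CPM had intervals that did not overlap. In thinned cells the tanycyte-like share of 29.9% (27.5 to 32.5) and the ependymocyte-like share of 25.8% (19.8 to 32.4) were nevertheless not distinguishable. The Gfap-led cluster had Six3, Six6 and Nkx2-1 at 197, 162 and 197 CPM, of which only the Six6 and Nkx2-1 values exceeded those of tanycyte-like cells, with overlapping intervals.

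**Figure D2:**
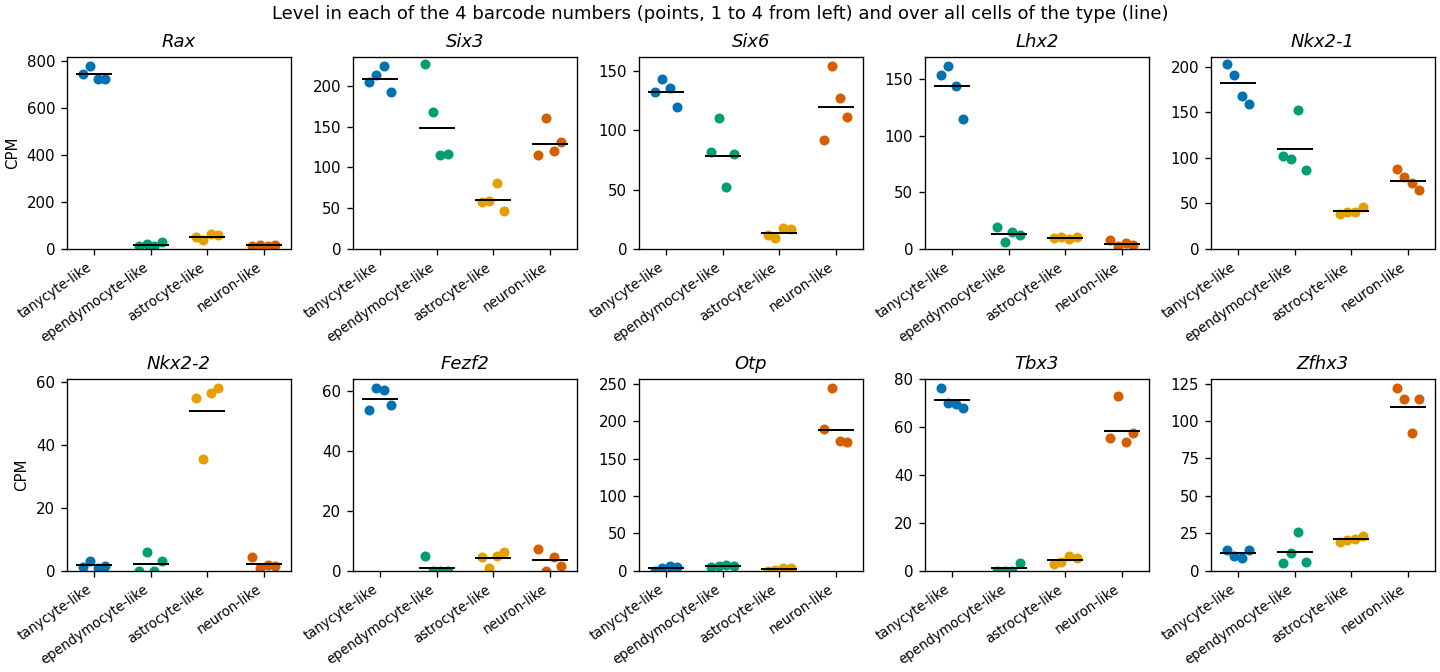
Level in CPM of each gene in the 4 types, with 1 point for each barcode number and a line for all cells of the type. Tanycyte-like readings of Rax (723 to 778 CPM) lie apart from all others, whereas those of Six6 (119.8 to 144 CPM) fall among the neuron-like ones.

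Otp, Zfhx3 and Nkx2-2 were low in tanycyte-like cells. Otp (ENSMUSG00000021685, chromosome 13, 94875602 to 94885130, plus strand) was measured at 189, 244, 173 and 173 CPM in neuron-like cells. Its total there of 188 CPM (178 to 198) compared with 6.10 CPM in ependymocyte-like, 3.45 CPM in tanycyte-like and 1.79 CPM in astrocyte-like cells. Only 28.7% of neuron-like cells were positive before thinning, and a single cell held up to 28 UMIs, so the level was carried by a minority of neurons. Thinned shares were 15.7% in neuron-like, 0.310% in tanycyte-like and 0.806% in microglia-like cells, and the tanycyte-like value did not exceed the background.

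Zfhx3 (ENSMUSG00000038872, chromosome 8, 107942644 to 108961630, plus strand) was broadly present in neuron-like cells, with readings of 122, 115, 92.1 and 115 CPM and a total of 109 CPM (101 to 117). Astrocyte-like, ependymocyte-like and tanycyte-like cells had 20.9, 12.2 and 11.8 CPM. Microglia-like cells exceeded all of them at 247 CPM (222 to 274), with readings from 224 to 284 CPM, and mural-like and macrophage-like cells had 140.2 and 135 CPM. In thinned cells 41.1% (36.1 to 46.3) of microglia-like cells and 22.5% (19.0 to 26.3) of neuron-like cells were positive. For this gene mature oligodendrocyte-like cells gave the lower background share, 1.53%.

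Nkx2-2 (ENSMUSG00000027434, chromosome 2, 147177546 to 147194243, minus strand), a homeobox gene of the ventral neural tube and of oligodendrocyte differentiation, was the only member highest in astrocyte-like cells among the 4 types. The readings there were 54.99, 35.5, 56.6 and 58.2 CPM, and the total was 50.8 CPM (44.0 to 58.4). Tanycyte-like cells had 1.64 CPM, ependymocyte-like cells 2.03 CPM and neuron-like cells 2.08 CPM, and in thinned cells 9.70% (8.13 to 11.4) of astrocyte-like cells were positive against 0.388% of tanycyte-like cells and 1.08% of microglia-like cells. Along the oligodendrocyte lineage the level was 111 CPM in precursor (OPC)-like cells, 237 CPM (211 to 265) in diffOPC-like cells. It was 26.7 CPM in the mature cells of that lineage. The interval of each of these stages was clear of the others. Nkx2-2 overlaps Nkx2-2os on the opposite strand, which had only 41 UMIs in all cells.

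Across all genes, a 2-fold difference was counted where the log2 ratio of (CPM + 10) between 2 types was at least 1 in either direction, among genes with at least 50 UMIs in the 2 types together. This is a rule of size without a test, because there were no replicates. A gene found in only 1 of the 2 types can pass this filter through that type alone, as Fezf2 and Tbx3 did against ependymocyte-like cells (1 UMI each there), so the counts of members describe them and are not support. Against astrocyte-like cells, 7 of the 10 members were higher in tanycyte-like cells, compared with 10.8% of all genes, and 1 (Nkx2-2) was lower, compared with 7.64%. The largest of these log2 differences were 3.63 for Rax, 2.97 for Lhx2, 2.60 for Six6 and 2.50 for Tbx3. Otp had under 50 UMIs in these types. The median of the 10 members was 2.08. For the 9 members passing the filter it was 2.26, and for all genes passing it 0.14. The medians were smaller in the other 2 comparisons. Against ependymocyte-like cells the 10 members had 0.69, the 8 passing the filter 1.65 and all genes passing it 0.10. Against neuron-like cells the 10 members had 0.45, the 9 passing 0.65 and all genes passing -0.03.

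Ependymocytes share the ventricular surface with tanycytes. Against ependymocyte-like cells 4 of the 10 members were higher by 2-fold in tanycyte-like cells (background 5.58%) and none was lower by 2-fold (background 9.28%). Rax differed by 4.78, Tbx3 by 2.88, Lhx2 by 2.73 and Fezf2 by 2.61 on the log2 scale. These sizes and their order depend on the 10 CPM added: with 1 CPM they were 5.34, 5.16, 3.35 and 4.85, so that Fezf2 passed Lhx2. Six6, Nkx2-1 and Six3 were on the same side with 0.69, 0.68 and 0.46, short of 2-fold, and Zfhx3 stood at -0.03. Nkx2-2 and Otp had under 50 UMIs in these types.

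Against neuron-like cells the members split in both directions. 4 of the 10 members were higher in tanycyte-like cells (background 10.9%), with log2 differences of 4.98 for Rax, 3.41 for Lhx2, 2.33 for Fezf2 and 1.19 for Nkx2-1. 2 were lower (background 12.4%), namely Otp at -3.88 and Zfhx3 at -2.45. Six3, Tbx3 and Six6 lay within 2-fold at 0.65, 0.25 and 0.14, and Nkx2-2 had under 50 UMIs.

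Tanycyte-like cells were left out of the remaining comparisons. Between ependymocyte-like and astrocyte-like cells, 7 members had at least 50 UMIs. Of these, 3 (Six3, Six6 and Nkx2-1) were higher by 2-fold in ependymocyte-like cells (background 16%), and 2 (Rax and Nkx2-2) were lower by 2-fold (background 12.1%). Ependymocyte-like cells exceeded neuron-like cells by 2-fold in 0 of the 7 members with at least 50 UMIs in that pair (background 14.4%). They were below neuron-like cells by 2-fold in Otp, Tbx3 and Zfhx3 (background 17.8%). Of the 9 members with at least 50 UMIs, astrocyte-like cells exceeded neuron-like cells by 2-fold in Rax and Nkx2-2 (background 12.3%). They were below neuron-like cells by 2-fold in Six6, Otp, Tbx3 and Zfhx3 (background 19.3%). Six3 missed the 2-fold bound in that comparison by little, at -0.99.

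**Figure D3:**
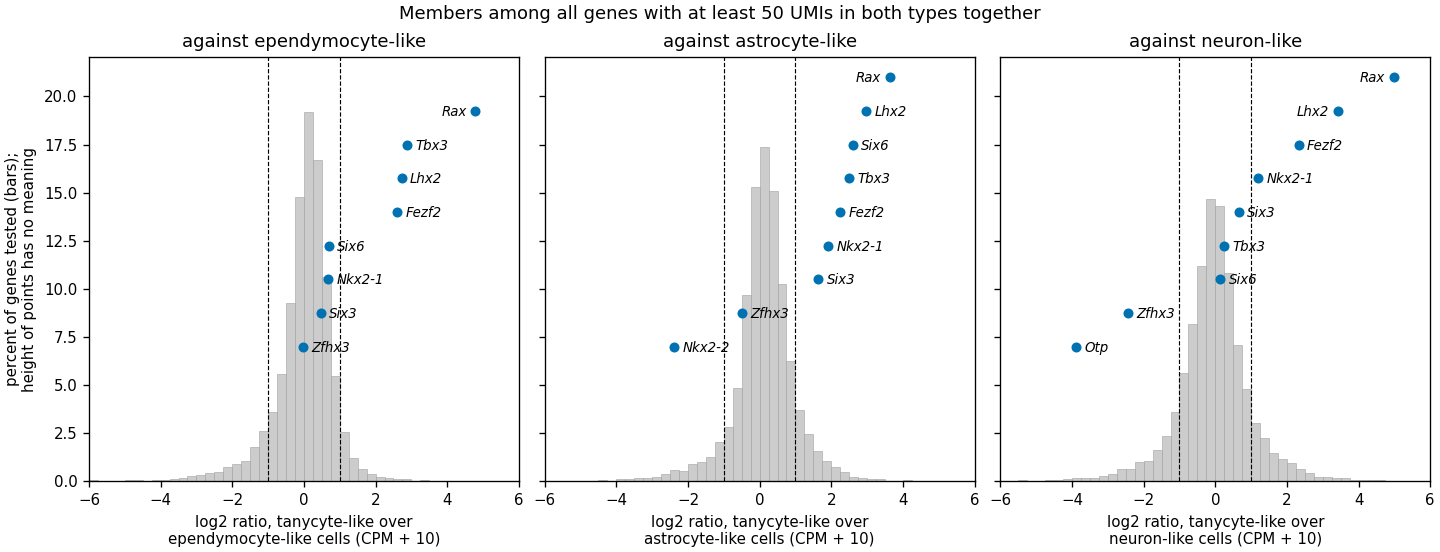
Log2 ratio of (CPM + 10) of tanycyte-like cells over each of the other 3 types for the members tested (points, set at arbitrary heights) and for all genes tested (bars, percent of genes in steps of 0.25), with dashed lines at 2-fold. Rax lies farthest to the right in all 3 panels at 4.78, 3.63 and 4.98, and Six6 moves from 2.60 against astrocyte-like to 0.14 against neuron-like cells.

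Within tanycyte-like cells, a second clustering, again without the 10 genes, gave 8 sub-clusters of 92 to 301 cells. Six6 was spread unequally over them. 4 sub-clusters with 578 cells had between 139.9 and 338 CPM of Six6, and the other 4 with 736 cells had between 2.65 and 8.21 CPM. No sub-cluster lay between these ranges. In single barcode numbers the former group ranged from 87.6 to 392 CPM and the latter from 0 to 32.4 CPM, so the readings did not overlap. The sets were drawn from the Six6 values themselves, and the separation of Six6 is therefore a description.

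Six3 and Fezf2 followed the same division in opposite directions. Six3 lay between 192 and 425 CPM in the 4 sub-clusters with Six6 and between 21.2 and 139 CPM in those without it. Fezf2 lay between 6.17 and 39.1 CPM in the former and between 71.4 and 147 CPM in the latter. Across the readings of single numbers Six3 did not overlap (169.7 to 449 against 7.22 to 163 CPM), whereas Fezf2 did (0 to 67.5 against 52.6 to 163 CPM). The sub-clusters with Six6 also held Penk, the proenkephalin gene, at 159 to 220.1 CPM, against 7.94 to 16.1 CPM in the others.

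Rax and Lhx2 were present on both sides of the division. Rax ranged from 325 CPM in the sub-cluster led by Dio3, the thyroid hormone inactivating deiodinase, to 934 CPM in that led by Dlk1 and Col25a1. Lhx2 was lowest in the same Dio3 sub-cluster at 58.2 CPM and reached 191 CPM. Over the 8 sub-clusters the levels of Rax and Lhx2 had a Pearson r of 0.92 on log2(CPM + 10), Six3 and Six6 one of 0.85 and Six6 and Fezf2 one of -0.81, given as descriptions of 8 points that share their libraries.

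Tbx3 and Nkx2-1 had levels that overlapped between the sub-clusters with and without Six6. Over the 8 sub-clusters their Pearson r with Six6 was 0.32 for Tbx3 and 0.68 for Nkx2-1, as a description. Both were highest in the sub-cluster of 128 cells led by Scn7a, Dlk1 and Col25a1, at 158 CPM (129.7 to 191) for Tbx3 and 304 CPM for Nkx2-1, and 53.9% of these cells held a Tbx3 UMI. A second sub-cluster led by Scn7a, with 142 cells and with Notum and Fgf8 among its leading genes, had Tbx3 at 116 CPM and the highest Fezf2 of all at 147 CPM, but Six6 at only 6.02 CPM. Six6 differed between these 2 sub-clusters in all 4 numbers, 293 to 392 CPM against 0 to 32.4 CPM. Scn7a was at 912 and 118 CPM in them and Col25a1 at 775 and 179 CPM. Their median depths were 5253 and 3461.5 UMIs.

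**Figure D4:**
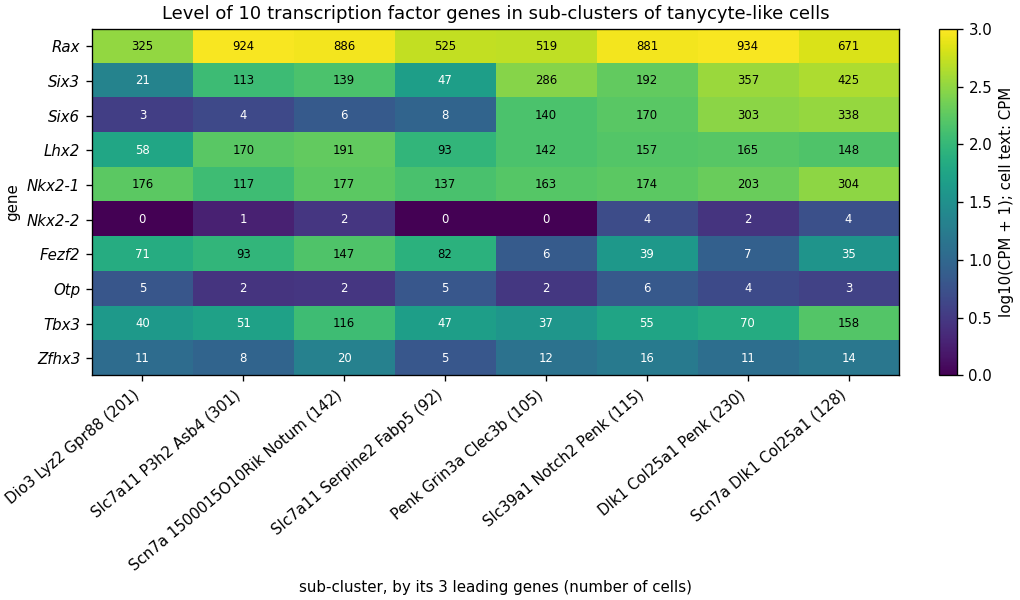
Level in CPM (number and, as log10(CPM + 1), colour) of each gene in 8 sub-clusters of tanycyte-like cells, ordered by Six6. The 4 sub-clusters on the right have Six6 at 139.9 CPM or more and Fezf2 at 39.1 CPM or less.

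The same tanycyte-like cells had come from 4 clusters of all cells, and these give a second description of the same counts, not an independent one. The clusters of 446 and 262 cells had Six6 at 156 and 308 CPM and Fezf2 at 42.0 and 27.1 CPM. Those of 463 and 143 cells had Six6 at 9.60 and 3.60 CPM and Fezf2 at 96.0 and 66.6 CPM. The cluster of 463 cells was led by the haemoglobin genes Hba-a2, Hbb-bs and Hba-a1, and the part of red cell RNA in its values was not tested.

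Neuron-like cells fell into 13 sub-clusters of 14 to 63 cells. Otp was concentrated in 3 of them: 571 CPM (527 to 618) in the sub-cluster led by Agrp and Npy, the feeding peptide genes, 461 CPM (418 to 507) in that led by Sst and Agrp, and 634 CPM (545 to 733) in a further Sst-led one. The shares of positive cells were 96.8%, 88.3% and 100% of 63, 60 and 21 cells. In the other 10 sub-clusters Otp was at 31.0 CPM or less. Each of the 3 kept at least 439 CPM in every barcode number.

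Six6 and Six3 each had their highest level in a sub-cluster where Otp was at 5.09 CPM or less, but both were also found beside Otp. In the further Sst-led sub-cluster Six3 was at 319 CPM and Six6 at 186 CPM, and in the Sst and Agrp cells Six3 was at 219 CPM and Six6 at 161 CPM. The sub-cluster of 37 cells led by Cck, Avp and Zic1, with the peptide receptor gene Vipr2, had Six6 at 837 CPM (725 to 962) and Six3 at 345 CPM (274 to 428). Its Six6 readings were 777, 946, 823 and 809 CPM in the 4 numbers. The sub-cluster of 54 cells led by Vip, Avp and Rgs16 had Six3 at 491 CPM (424 to 565) and Six6 at 371 CPM (313 to 437). Six6 was at the same level, 371 CPM (281 to 479), in the 14 cells led by Lhx1os, Slc18a2 and Th. Zfhx3 reached its highest neuronal levels in the same 2 sub-clusters, 303 CPM and 267 CPM. Their median depths of 6409 and 7347.5 UMIs were the lowest of the 13.

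Nkx2-1 was low in the neurons where Six6 was highest. It was not found in the 54 Vip and Avp cells (upper bound 9.38 CPM), and was at 8.41 CPM in the 37 Cck and Avp cells. Its highest levels were 267 CPM in the 22 cells led by Cck and Ppp1r17, 146 CPM in those led by Crabp1 and Tac1, 140.5 CPM in those led by Tac2, and 130.3 CPM in those led by Avp, Tac1 and Pomc. Six6 was at 10.7, 16.8, 15.9 and 44.2 CPM in these 4. Over the 13 sub-clusters the Pearson r was 0.87 between Six3 and Six6 and -0.69 between Six6 and Nkx2-1, again as a description. Over the 8 tanycyte-like sub-clusters Six6 and Nkx2-1 had an r of 0.68, of the opposite sign. The Agrp and Npy cells had Otp and Tbx3 (80.1 CPM) with Nkx2-1 at only 5.59 CPM.

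Tbx3 was strongest in the Crabp1 and Tac1 cells at 133 CPM (108.7 to 162), followed by the Tac2 cells at 81.1 CPM, the Agrp and Npy cells at 80.1 CPM and the Sst and Agrp cells at 78.3 CPM. The intervals of the last 3 overlapped. No Tbx3 UMI was found in the Vip and Avp cells or in the 14 cells led by Lhx1os, Slc18a2 and Th. Rax, Lhx2, Fezf2 and Nkx2-2 were at 25.2 CPM or less in all 13 sub-clusters.

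**Figure D5:**
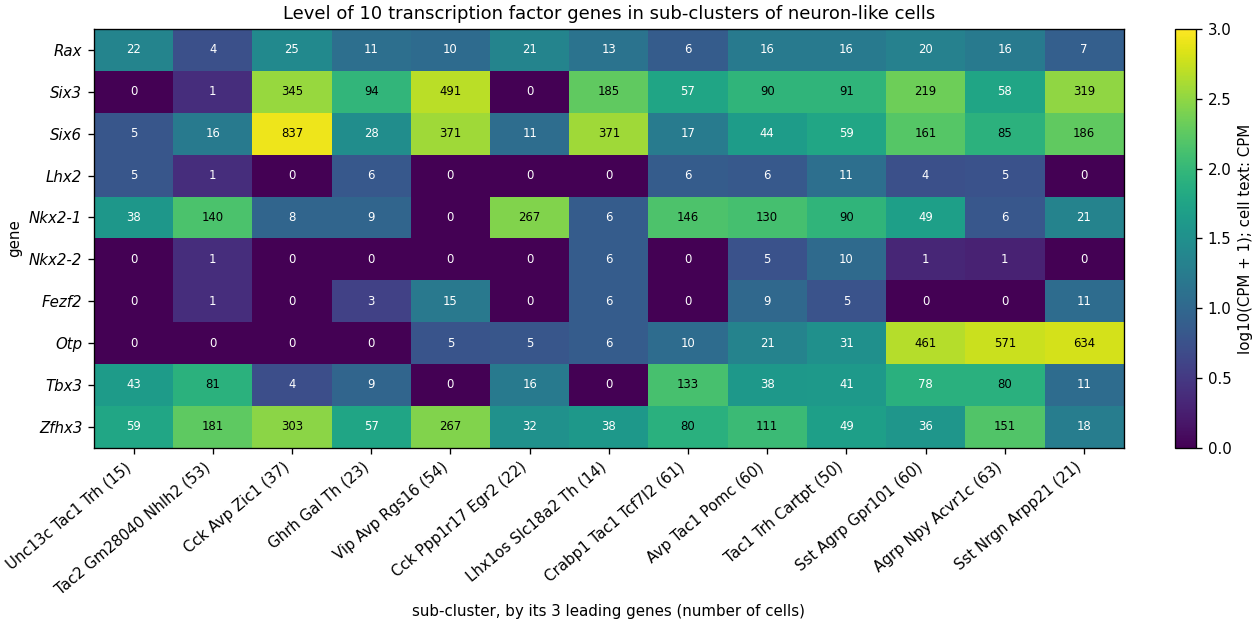
Level in CPM (number and, as log10(CPM + 1), colour) of each gene in 13 sub-clusters of neuron-like cells, ordered by Otp. Otp is at 461 CPM or more in the 3 sub-clusters on the right and stays at 31.0 CPM or less elsewhere, and Six6 peaks at 837 CPM in the Cck, Avp and Zic1 cells.

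Detection in the same cell was examined in thinned cells. Six3 and Six6 were found together in 6.52% of 1289 tanycyte-like cells, above the 3.996% given by the product of their single shares. In 529 neuron-like cells the values were 9.07% and 4.32%. Six3 and Fezf2 met in 1.86% of tanycyte-like cells where the product was 3.35%, and Six6 and Fezf2 in 0.621% where it was 1.746%. Rax and Lhx2 met in 15.6%, close to the product of 15.2%. No test was made of these shares.

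Tanycyte-like and neuron-like cells both held a median of 3 of the 10 genes before thinning, against 1 in ependymocyte-like and 0 in astrocyte-like cells. At equal depth the shares of cells with at least 3 of the genes were 28.7% of tanycyte-like and 9.64% of neuron-like cells, so the similar medians came with a more than 3-fold difference in median depth. Cells with none of the genes made up 9.62% and 32.7% after thinning.

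The genes most like each member were sought by Pearson correlation of log2(CPM + 10) over the 26 clusters, among 11016 genes with at least 200 UMIs. Rax and Lhx2 were near each other (0.96), and Fgf18 and Gpr50 completed the first 3 of both genes. Gpr50 is one of the tanycyte markers used for naming. Six3 was nearest to Six6 (0.92), and Six6 to its overlapping neighbour 4930447C04Rik (0.96). Nkx2-1 was nearest to Nkx2-4 (0.91), its close relative, and then to Lrrc9 and Armc2. Fezf2 was nearest to Rax (0.92), followed by Cpa4 and Nkx2-4.

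The remaining members had other neighbours. Nkx2-2 was most like Olig2 (0.89), the oligodendrocyte lineage factor, then Abtb2 and Scrg1, and Otp most like Rab15 (0.91), Gabra5 and Acta1. Tbx3 and Zfhx3 had weaker best matches, Prdm16 (0.80), Ngrn and Pdlim7 for the former and Pou2f2 (0.81), 1600014C10Rik and Slc7a8 for the latter. Clusters share libraries and lineages, and the coefficients are descriptions over 26 points.

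A list of 72 related transcription factor genes (other Six, Eya and Dach genes, Nkx, LIM, T-box, zinc finger homeobox and further hypothalamic homeobox genes and cofactors) was set beside the members. All 72 were in the matrix, 46 had at least 50 UMIs and 2 had none. Against ependymocyte-like cells 4 of 18 tested were higher by 2-fold in tanycyte-like cells, against astrocyte-like cells 3 of 26 and against neuron-like cells 6 of 34. The shares of all genes called were 5.58%, 10.8% and 10.9% in turn. In the other direction the counts were 2, 8 and 9, and the shares of all genes 9.28%, 7.64% and 12.4%.

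Only Nkx2-4 and Tbx2 of the related genes were higher by 2-fold in tanycyte-like cells than in each of the other 3 types. Nkx2-4 stood at 98.0 CPM, against 32.5, 22.7 and 7.89 CPM in ependymocyte-like, astrocyte-like and neuron-like cells. Tbx2, the T-box relative of Tbx3, stood at 12.5 CPM there, against 1.02 CPM or less in the other 3, but at 68.1 CPM in mural-like cells. Related genes with high levels in tanycyte-like cells included Lmo4 (395 CPM), Nkx2-4, Lmo3 (82.0 CPM) and Pou3f2 (51.6 CPM). Lmo4 was more than 2-fold higher in ependymocyte-like cells (864 CPM), as was Pou3f2 in astrocyte-like cells (202 CPM). In neuron-like cells they included Isl1 (163 CPM), Ldb2 (60.2 CPM), Lmo4 (51.7 CPM) and Zeb1 (50.3 CPM). Of these, only Isl1 was higher in neuron-like cells than in each of the other 3 types. The lists name genes by level and do not rank one gene against another.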

How the data were processed

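Per the labels and the methods of the study, droplet libraries (10x 3' version 2) were mapped by the authors to GRCm38 (mm10) and counted with Cell Ranger 2.0. The deposited matrix holds these whole-number UMI counts, unnormalized, for 5982 cells and 27998 genes; the annotation release and the use of strand are not given in the sources used here. Gene positions came from GENCODE vM21 (27645 identifiers matched). The 10 genes, the lists and the naming thresholds were chosen with earlier results of these data known.

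Counts were clustered with scanpy 1.11.5 (2000 variable genes, 30 principal components, 15 neighbours, Leiden resolution 1, seed 0), leaving out the 10 genes. A cluster took the best of 13 marker lists if its score (mean CPM over the highest cluster CPM) was at least 0.3 and 1.5 times the next, if 3 markers lay 4 times above the median cluster, and if its 10 leading genes held no more markers of another type. 23 of 26 clusters were named. 3 cells rich in haemoglobin were set apart. Doublets (50 called, 0.836%) were kept. Thinning to 2000 UMIs (1 UMI is 500 CPM) left out 25 tanycyte-like, 140 astrocyte-like and 4 neuron-like cells and no ependymocyte-like cell. On simulated data 93.5% of 200 genes changed 4-fold between tanycyte-like and ependymocyte-like sums of 9938 genes were found by the 2-fold rule. The changed genes were drawn only from those above a minimum level, and the sums held counting error alone. The rate therefore does not cover genes of low level or variation between cells and libraries. Genes named besides the members were the 3 most like each member, the related genes past 2-fold against all 3 types or of the 5 highest levels (1 of these genes is not reported here), and genes leading a cluster; the last were named after their values were seen.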

Additional observations from a re-analysis of the deposited data

How the results depend on the processing

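The count of 7 genes highest in tanycyte-like cells was obtained at Leiden resolutions of 0.5 and 2. It was also obtained with the 10 genes kept in the clustering and Rax among the markers, and without each barcode number (7 in all 4). Leaving out doublets or filtering cells gave 7 as well, but kept 1313 and 1312 of 1314 tanycyte-like cells and so could change little. The count was 6 with thinned cells and with means over cells, where Six6 was higher in neuron-like cells (113 against 158 CPM, and 109 against 156 CPM). With the Gfap-led cluster counted as tanycyte-like, an alternative added after seeing the data, Tbx3 was at 57.1 CPM against 58.4 CPM in neuron-like cells. At resolution 2 only 856 cells were named tanycyte-like, with Six6 at 186 CPM. By thinned shares 5 genes were highest in tanycyte-like cells (4 to 5 without 1 barcode number), 4 in unthinned cells, and 3 when at least 2 UMIs were asked of unthinned cells; the cause was not tested. Counts past 2-fold between tanycyte-like cells and the other 3 types were the same without each barcode number, with a pseudocount of 1 CPM and without the count filter, and at 4-fold fell from 7 to 5 against astrocyte-like and from 4 to 3 against neuron-like cells. K-means with 9 clusters left tanycyte-like, ependymocyte-like and neuron-like cells unnamed and gave no value. No paired analysis was possible because the cells are not tied to libraries or feeding states. At the depths here 3 UMIs correspond to 0.546 CPM in tanycyte-like and 3.05 CPM in ependymocyte-like cells.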
